A study of Rattus norvegicus with 9 samples.

Results

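The miRNA profile of the rat soleus after 7 days of hindlimb suspension was compared with that of normally loaded soleus. The animals were male rats of the Sprague-Dawley strain at 6 months of age. Control rats are described only as controls, while the suspended rats hung by a tail device, so that their hindlimbs bore no weight, for 7 days. Each group had 3 single-colour arrays, and these 6 arrays of the 9 in the series were fitted by themselves; the other 3 arrays came from rats suspended for 2 days. The arrays held 334 miRNA probes, 238 for named rat miRNAs and 96 for predicted ones, each printed as 9 repeat spots. Detection on an array required that over 0.5 of a probe's spots exceed the 95th percentile of the 614 empty spots there, and testing required detection on all 3 arrays of the control group, the 7-day group or both, which 178 probes met. Of these, 149 were detected on all 6 arrays. The other 29 passed only through the 7-day arrays, so the filter itself could favour higher values at 7 days among them. A further 39 probes were detected on some array but not tested, and 117 were detected on none. The labels do not say in so many words that the 3 replicates of a group were separate animals. The p-values therefore reflect only how far these samples spread, which may be technical.

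MicroRNAs are short RNAs that guide a silencing complex to messenger RNAs, mainly through bases 2 to 8 from their 5′ end, the seed. Each is cut from a hairpin whose arms can both give a mature strand, and in older names the less abundant arm carries a star. The soleus is a postural muscle rich in slow fibres, and it loses mass when hindlimb load is removed. Striated muscle is known for high levels of miR-1, miR-133 and miR-206, and for miR-499, which lies in an intron of a myosin gene.

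A total of 5 miRNAs passed the test, 2 higher and 3 lower at 7 days. MiR-126* and miR-148b rose, and miR-333, miR-221 and miR-222 fell. Their targets as given in the scanner files are printed with the seed in capitals. MiR-221 and miR-222, which are known to repress the cell cycle inhibitor p27 and to fall when myoblasts differentiate, share a seed.
miR-221: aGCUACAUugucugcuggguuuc
miR-222: aGCUACAUcuggcuacugggucuc
Both match RefSeq hairpins that lie beside each other on the plus strand of chromosome X of the GRCr8 assembly, miR-222 at chrX:6022682-6022705 and miR-221 at chrX:6023246-6023268.

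MiR-126* and miR-126 are the arms of 1 hairpin, known from an intron of the endothelial gene Egfl7. They are shown together because only the star strand passed the test.
miR-126*: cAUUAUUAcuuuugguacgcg
miR-126: uCGUACCGugaguaauaaugc

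MiR-148b belongs to the miR-148/152 family, which is known to repress the DNA methyltransferase Dnmt1, and it shares its seed with miR-152. Its RefSeq hairpin match lies at chr7:136299930-136299951 on the plus strand (GRCr8).
miR-148b: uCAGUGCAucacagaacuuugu
miR-152: uCAGUGCAugacagaacuuggg
miR-333: gUGGUGUGcuaguuacuuuu

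The profile as a whole differed little between the groups. Over the 178 tested probes the median log2 fold change was -0.03, the range -0.95 to 2.89, and 130 probes (73%) lay within 0.25 log2 units of 0. Correlations of log2 intensity between arrays were 0.986 to 0.996 within groups and 0.983 to 0.991 between them. With Benjamini-Hochberg adjustment and a threshold of 0.05, limma called 5 probes, which is 2.81% of those tested. The 2 higher ones are 1.12% and the 3 lower ones 1.69%. At an unadjusted p below 0.05 there were 32 probes (18%), 18 of them higher (10.1%) and 14 lower (7.87%). The groups did not overlap for 43 probes (24.2%), of which 21 were higher (11.8%) and 22 lower (12.4%) at 7 days. Taken by sign alone, 74 probes (41.6%) had the higher value at 7 days.

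**Figure D1:**
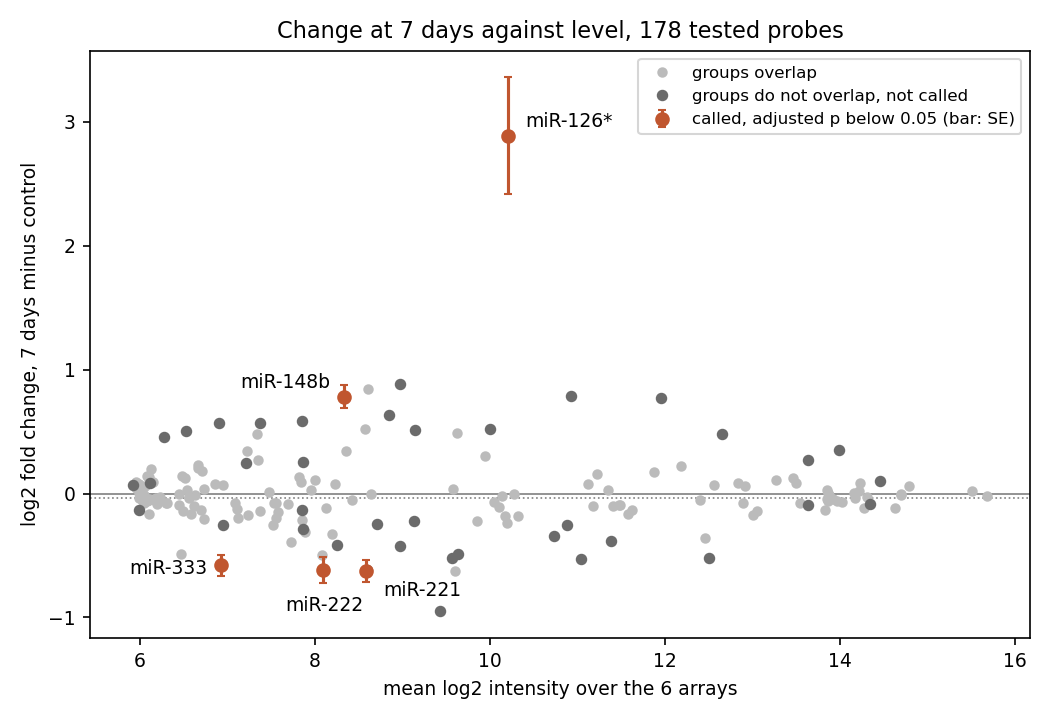
Log2 fold change at 7 days against control (y axis) by mean log2 intensity over the 6 arrays (x axis) for the 178 tested probes; called means a limma adjusted p below 0.05, bars are SE and the dotted line is the median of all probes. MiR-126* stands at 2.89, while the remaining probes lie between -0.95 and 0.88.

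MiR-148b had normalised log2 intensities of 8.05, 7.80 and 7.97 on the control arrays and of 8.74, 8.81 and 8.62 on the 7-day arrays. The 7-day arrays all lay above the controls, by at least 0.58. MiR-148b rose by 0.78 ± 0.10 log2 units (SE, n = 3 arrays in each group), or 1.72-fold, with a limma adjusted p of 0.0287. Its seed partner miR-152 had overlapping groups and a log2 fold change of -0.10 ± 0.11 (limma adjusted p = 0.761). The difference between these partners was not tested.

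MiR-221 had log2 intensities of 8.87, 8.82 and 8.99 in controls and of 8.30, 8.15 and 8.37 at 7 days. MiR-222 had 8.26, 8.56 and 8.37 in controls and 7.70, 7.89 and 7.76 at 7 days. For both miRNAs every suspended array lay below every control array. MiR-221 fell by 0.62 ± 0.09 log2 units (SE; limma adjusted p = 0.0287), 1.54-fold, and miR-222 fell by 0.61 ± 0.10 (SE; limma adjusted p = 0.0418), 1.53-fold. Without normalisation between arrays the differences were -0.25 for miR-221 and -0.30 for miR-222 (limma adjusted p = 0.468 and 0.346), with a median over all tested probes of 0.14.

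MiR-333, a miRNA named in rat, had log2 intensities of 7.21, 7.19 and 7.25 in controls and of 6.73, 6.67 and 6.50 at 7 days. The controls lay within a narrow band and the suspended arrays all below it. It fell by 0.58 ± 0.08 log2 units (SE; limma adjusted p = 0.0287), 1.49-fold. It is a dim probe, with a scanner brightness of 99.4 to 122 in controls and of 73.4 to 84.9 at 7 days, against empty-spot limits of 31.6 to 53.6 over the 6 arrays.

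MiR-126* had log2 intensities of 9.78, 8.05 and 8.46 on the control arrays and of 11.88, 11.86 and 11.22 on the 7-day arrays. Control array 1 was the highest of the controls and still 1.44 below the lowest 7-day array. MiR-126* rose by 2.89 ± 0.47 log2 units (SE; 95% interval 1.73 to 4.05; limma adjusted p = 0.0411), which is 7.4-fold and the largest change among the tested probes. MiR-126, the other arm, had 14.09, 14.22 and 14.16 in controls and 14.07, 14.19 and 14.22 at 7 days. Its log2 fold change was 0.00 ± 0.08 (SE; 95% interval -0.19 to 0.19; limma adjusted p = 0.994), and the groups overlapped.

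A control probe on the same arrays moved with miR-126*. The spike-calibration probe a-PUC2MM2d had a mean scanner brightness of 1883, 244 and 198 on control arrays 1 to 3 and of 4259, 4124 and 5792 on 7-day arrays 1 to 3. The brightness of miR-126* on the same arrays was 919, 215 and 254 in controls and 4160, 4864 and 3208 at 7 days. On the 2-day arrays the control probe had 3939, 3624 and 348 and miR-126* had 1870, 2407 and 514. Control array 1 and 2-day arrays 1 and 2 were thus bright for both probes, and control arrays 2 and 3 and 2-day array 3 were dim for both. Of the 178 tested probes over the 9 arrays, miR-126* ranked 1 in likeness to the control probe. This comparison was made after the values had been seen, and the control probe's part in the miR-126* result was not tested. MiR-126 ran from 16180 to 21152 on the 9 arrays.

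**Figure D2:**
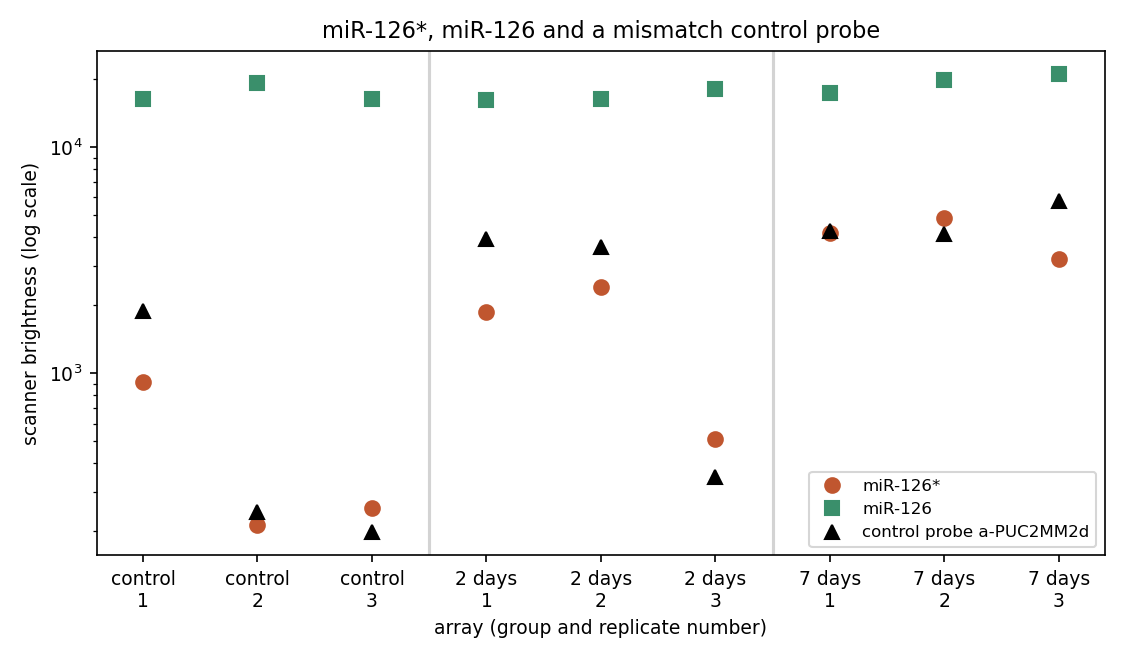
Scanner brightness on a log axis for miR-126*, miR-126 and the control probe a-PUC2MM2d on each of the 9 arrays, grouped as control, 2 days and 7 days; points are means of repeat spots. MiR-126* runs from 215 to 4864 and the control probe from 198 to 5792, while miR-126 stays between 16180 and 21152. The same arrays are bright or dim for miR-126* and the control probe, but their order differs within groups. On 7-day array 3 the control probe is at its highest (5792) and miR-126* at its lowest of the 7-day arrays (3208).

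None of the 5 calls held in every fit that left out 1 array, though such fits also have fewer degrees of freedom. Without control replicate 2, control replicate 3, 7-day replicate 1 or 7-day replicate 2, limma called 0 probes each time, with smallest adjusted p-values of 0.103, 0.0805, 0.152 and 0.154, and 25, 29, 19 and 21 probes at an unadjusted p below 0.05. Without control replicate 1 there were 6 calls, and without 7-day replicate 3 there were 4. The log2 fold changes themselves moved less: 0.72 to 0.84 for miR-148b, -0.66 to -0.56 for miR-221, -0.69 to -0.54 for miR-222, -0.63 to -0.50 for miR-333 and 2.54 to 3.46 for miR-126*.

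A further 20 miRNAs made up the 25 with the smallest p, and none of them passed the test. Nearest to the threshold were miR-189 and miR-139, each with a limma adjusted p of 0.0546. MiR-189 is the old name of the 5′ arm of a miR-24 hairpin, at chr17:1818709-1818731 on the minus strand (GRCr8), and its sequence is printed beside that of miR-24 to show that the arms are different molecules.
miR-189: gUGCCUACugagcugauaucagu
miR-24: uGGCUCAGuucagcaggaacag
MiR-189 had 6.48, 6.55 and 6.82 in controls and 7.16, 7.15 and 7.26 at 7 days, a log2 fold change of 0.57 ± 0.11 (SE). MiR-24 had 13.84, 13.91 and 13.94 in controls and 13.66, 13.75 and 13.88 at 7 days, a log2 fold change of -0.14 ± 0.08 (SE; limma adjusted p = 0.551). The groups did not overlap for miR-189 and overlapped for miR-24. MiR-139 had 7.12, 7.09 and 7.06 in controls and 7.68, 7.84 and 7.46 at 7 days, a log2 fold change of 0.57 ± 0.11 (SE).

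**Figure D3:**
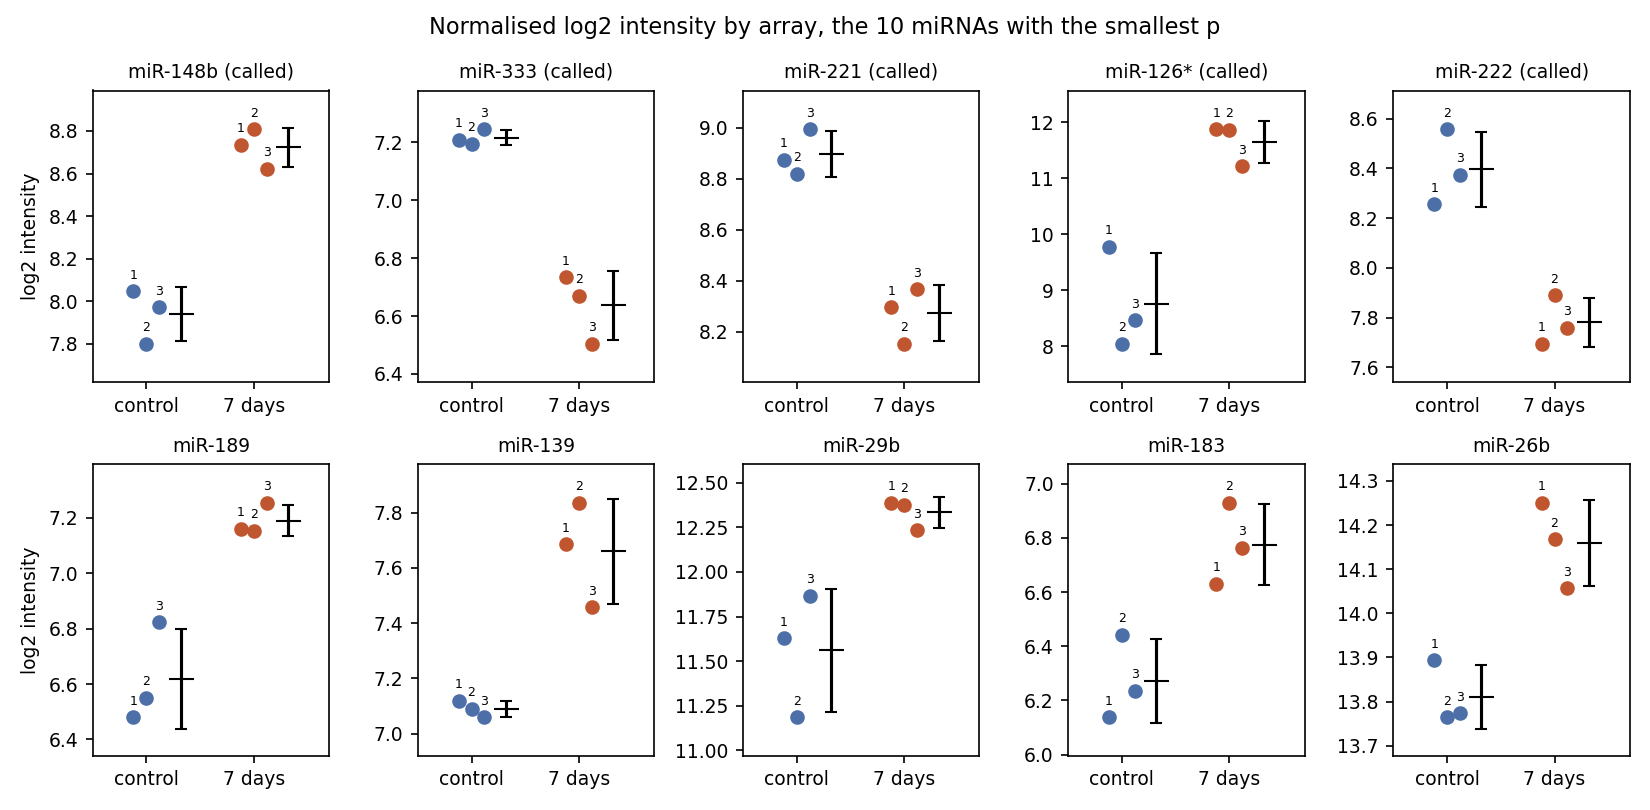
Normalised log2 intensity (y axis, its own range in each panel) on the 3 control and 3 suspended arrays for the 10 miRNAs with the smallest p; points carry the replicate number, and bars are the mean and SD. In all 10 panels, chosen by p, the groups do not overlap, against 24.2% of all tested probes. The 5 panels marked as called passed the limma adjusted p of 0.05.

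The miR-29 family, which is known to repress collagens and other matrix genes, had its 3 main members on the higher side. They share a seed.
miR-29a: uAGCACCAucugaaaucgguu
miR-29b: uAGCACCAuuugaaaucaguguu
miR-29c: uAGCACCAuuugaaaucggu
MiR-29b had 11.63, 11.19 and 11.87 in controls and 12.39, 12.38 and 12.23 at 7 days, a log2 fold change of 0.77 ± 0.18 (SE; limma adjusted p = 0.105). MiR-29c had 13.48, 13.40 and 13.61 in controls and 13.79, 13.80 and 13.72 at 7 days, a log2 fold change of 0.27 ± 0.08 (SE; limma adjusted p = 0.154). MiR-29a had a log2 fold change of 0.10 ± 0.07 (SE; limma adjusted p = 0.649). For all 3 the groups did not overlap, as for 11.8% of all probes in that direction, and none passed the test. MiR-29c*, the fourth tested member of the list, had overlapping groups and a log2 fold change of -0.08 ± 0.12 (SE; limma adjusted p = 0.799). The targets of miR-29a and miR-29c differ at 2 bases, so their probes may share signal.

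MiR-103 and miR-107, which lie in introns of pantothenate kinase genes, had lower values at 7 days. Their targets differ at 1 base, so the probes may share signal.
miR-103: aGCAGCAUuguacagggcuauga
miR-107: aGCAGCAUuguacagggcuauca
MiR-107 had 10.02, 9.71 and 9.76 in controls and 9.16, 9.25 and 9.51 at 7 days, a log2 fold change of -0.52 ± 0.13 (SE; limma adjusted p = 0.119). MiR-103 gave -0.48 ± 0.13 (SE; limma adjusted p = 0.148). Without normalisation between arrays the values were -0.08 and -0.06.

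Of the remaining uncalled miRNAs among the 25, miR-451, known from red blood cells, had the lowest log2 fold change. Its values were 10.51, 9.69 and 9.50 in controls and 8.86, 8.77 and 9.22 at 7 days, a difference of -0.95 ± 0.29 (SE; limma adjusted p = 0.154). MiR-10a, which lies in a Hox gene cluster, had 10.25, 10.76 and 10.57 in controls and 11.55, 11.54 and 10.85 at 7 days, a difference of 0.79 ± 0.23 (SE; limma adjusted p = 0.154). MiR-26b, of a family known to favour myoblast differentiation, had 13.89, 13.77 and 13.77 in controls and 14.25, 14.17 and 14.06 at 7 days, a difference of 0.35 ± 0.08 (SE; limma adjusted p = 0.105). The groups did not overlap for any of these. Higher values were also found for miR-183 (0.50), miR-450 (0.52), miR-374 (0.52), miR-98 (0.48), miR-196b (0.48) and miR-338 (0.46). Lower values were found for miR-140* (-0.62), miR-214 (-0.53), miR-145 (-0.52), miR-146 (-0.38) and miR-494 (-0.25). The limma adjusted p-values of these 11 lay between 0.105 and 0.192, and their groups did not overlap except for miR-196b. Of all tested probes 24.2% did not overlap, and choice by the smallest p favours such probes, so this adds no support for any of the 25. MiR-338 passed the detection filter only through the 7-day arrays, with detection on 2 control arrays.

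**Figure D4:**
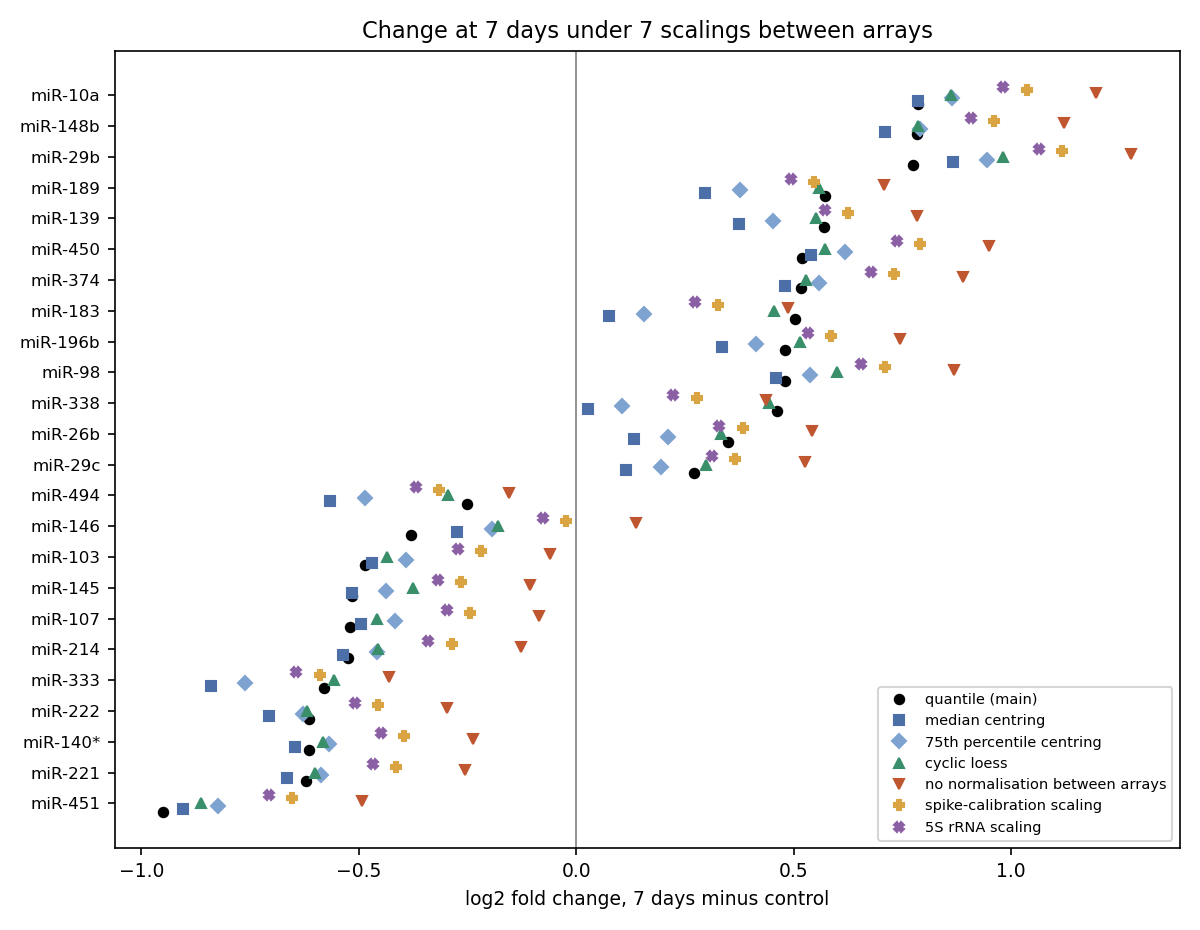
Log2 fold change at 7 days against control (x axis) of 24 of the 25 miRNAs with the smallest p (miR-126* left out for its size) under 7 ways of scaling the arrays. Without normalisation between arrays the values lie to the right of the quantile values for most miRNAs, and miR-146 passes from -0.38 to 0.14, the only change of side in the plot.

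Striated muscle miRNAs, the check of the tissue, were bright on every array: the summed scanner brightness of the 7 probes was 157353 to 170227 in controls and 161439 to 174369 at 7 days. None of the 7 passed the test, against 2.81% of all probes, and their median log2 fold change was -0.08, against -0.03 over all tested probes. MiR-1 and miR-206, the brightest, had log2 fold changes of -0.02 ± 0.06 and 0.02 ± 0.06 (SE). Quantile normalisation forces the brightest probes to nearly equal values on all arrays, and that step set the narrow spread of both. MiR-133a and miR-133b both had -0.12 ± 0.08 (SE) and targets that differ at 2 bases. MiR-499 had 14.38, 14.40 and 14.35 in controls and 14.32, 14.30 and 14.26 at 7 days, a difference of -0.08 ± 0.06 (SE; limma adjusted p = 0.653). MiR-208, which lies in a cardiac myosin gene, was close to the empty-spot level, detected on 2 control arrays and all 3 suspended ones, with -0.13 ± 0.08 (SE; limma adjusted p = 0.507). MiR-1*, the 5′ arm of miR-1, had 0.10 ± 0.19 (SE; limma adjusted p = 0.861) and was detected on 2 control arrays and all 3 suspended ones. Both miR-208 and miR-1* thus passed the detection filter only through the 7-day arrays.

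The list of miRNAs tied to the myoblast cell cycle and satellite cells, the stem cells of muscle, had 12 tested members, 8 higher and 4 lower by sign. Among the higher ones, miR-31 and both arms of miR-542 passed the detection filter only through the 7-day arrays. MiR-221 and miR-222 were the only 2 members called, both lower, against 1.69% called lower over all probes. The median over the list was 0.09, against -0.03 over all probes. After those 2, the list's furthest value was that of miR-450 (0.52 ± 0.17, SE), which lies with miR-322, miR-503, miR-351, miR-424 and both arms of miR-542 on the minus strand of chromosome X (GRCr8), between 137720986 and 137726219. The 7 tested probes of that stretch had a median log2 fold change of 0.09, with 5 higher (both miR-542 arms among them) and 2 lower. None was called.

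The inflammation and fibrosis list had all 6 tested members lower by sign, against 104 of all 178 tested probes, with a median of -0.29. Without normalisation between arrays its median was 0.09, against 0.14 over all tested probes. None passed the test. An unadjusted p below 0.05 was reached by 2, miR-214 and miR-146, against 7.87% of all probes on the lower side. MiR-199a and miR-214 are also in the smooth muscle and fibroblast list, so these lists are not separate observations. MiR-199a had the lowest value, -0.63 ± 0.41 (SE; limma adjusted p = 0.602), with 10.77, 9.56 and 9.39 in controls and 9.04, 9.06 and 9.74 at 7 days, and its difference was -0.21 without control replicate 1. Control array 1 stood apart from the other controls for miR-199a, as it did for miR-451 and miR-126*. MiR-21, known to rise in many injured tissues, had -0.18 ± 0.20 (SE; limma adjusted p = 0.761).

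Among the families, the miR-30 family had all 5 members on the higher side, with values of 0.00 to 0.11. The miR-23/24/27 list had all 5 members on the lower side, with values of -0.14 to 0.00. That list leaves out miR-189 (0.57), which lies in the same chromosome 17 cluster as miR-24, miR-27b and miR-23b. Both listed ranges were small, and no listed member was called. The let-7 family had 2 higher and 6 lower members, with miR-98 (0.48) furthest from a median of -0.05, and let-7e at 0.13. In the miR-17 to miR-92 clusters, known to promote proliferation, 9 of 10 probes were tested, 2 higher and 7 lower, with a median of -0.22. MiR-19b (-0.50 ± 0.31, SE) and miR-20a (-0.42 ± 0.17, SE; limma adjusted p = 0.251) were furthest. They moved to -0.15 without control replicate 1 and to -0.28 without control replicate 3, in that order. The miR-15/16 list, which also held miR-103, miR-107 and miR-322, had 1 higher and 7 lower members and a median of -0.08. MiR-322 is the other arm of the miR-424 hairpin and has a different seed. The 5 tested probes with the seed of miR-16 had 1 higher and 4 lower, with a median of -0.02. The miR-26 and miR-181 families had 3 higher and 2 lower, with a median of 0.07 and miR-181b at -0.25 ± 0.09 (SE; limma adjusted p = 0.228). No member of these families passed the test.

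The imprinted Dlk1-Dio3 cluster is a long run of miRNA genes on chromosome 6 that is expressed from the maternal chromosome. Of its 32 probes, 20 were tested, with 6 higher, 14 lower and none called, and a median of -0.08. The furthest values were those of miR-377 (0.52 ± 0.47, SE) and miR-341 (0.49 ± 0.53, SE), whose groups overlapped and whose limma adjusted p-values were 0.714 and 0.761. Leaving out 1 array moved them between 0.19 and 1.05 (without control replicate 3 and control replicate 1) and between 0.08 and 0.96 (without control replicate 1 and control replicate 2). MiR-341 ran from 8.55 to 10.33 in controls and from 9.12 to 10.38 at 7 days.

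**Figure D5:**
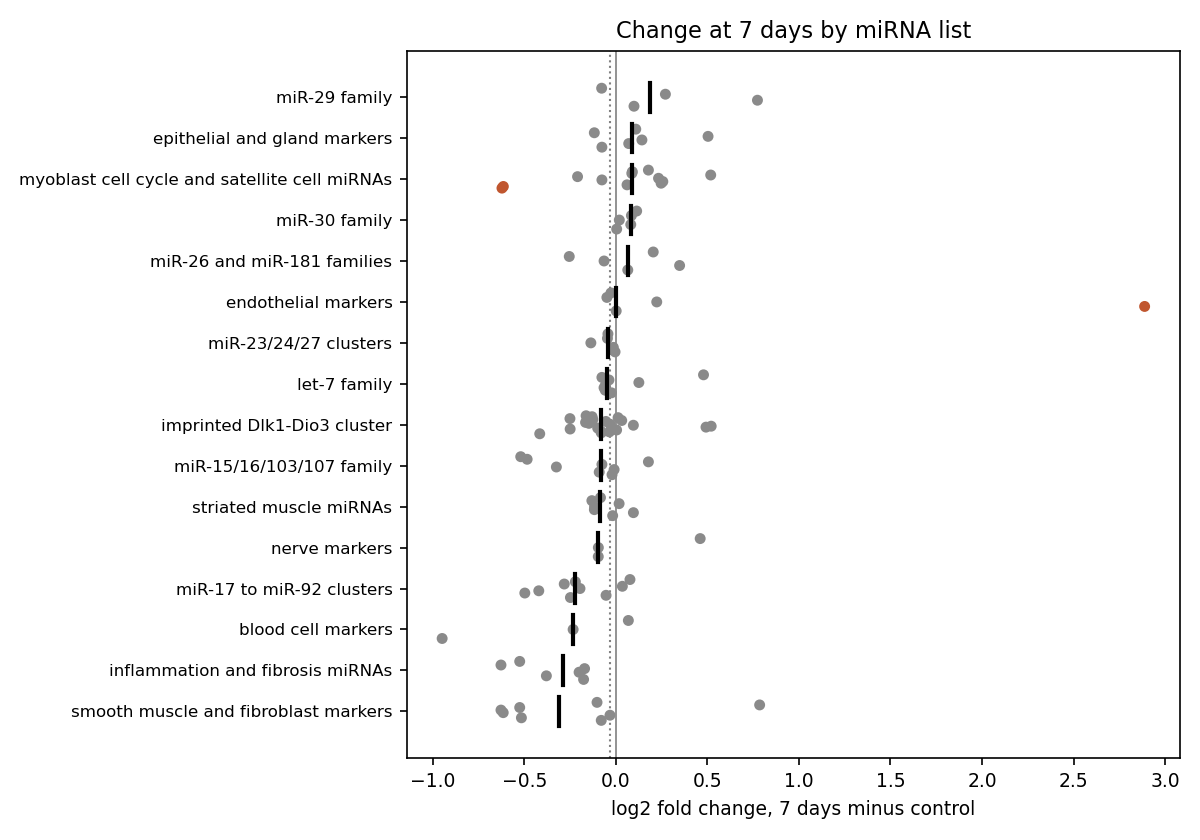
Log2 fold change at 7 days against control (x axis) of the tested members of 16 miRNA lists, 1 row per list; orange points passed the limma adjusted p of 0.05, black bars are list medians, and the dotted line is the median of all tested probes. List medians lie between -0.31 and 0.18, and the called members are miR-126*, miR-221 and miR-222.

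Markers of other cell types in the tissue were read the same way. In a bulk muscle sample, fewer cells of a type and less RNA per cell cannot be told apart. Summed brightness is of scanner values not scaled between arrays, in which the brightest members weigh most. List medians are of normalised log2 fold changes, so the sums and medians are on unlike scales. Before normalisation the array medians of tested probes averaged 8.07 log2 units in controls and 8.36 at 7 days. The smooth muscle and fibroblast list had 1 higher (miR-10a) and 7 lower members and a median of -0.31. Its summed brightness was 18083 to 21829 in controls and 19650 to 26538 at 7 days, and none of its 8 members was called. Its median was -0.19 without control replicate 1. The endothelial list had 3 higher and 2 lower members and a median of 0.00, with miR-126* the 1 member called, against 2.81% of all probes. MiR-10b was at 0.22 ± 0.21 (SE), and at 0.014 without control replicate 1. Its summed brightness of 20228 to 24882 in controls and 27488 to 31603 at 7 days includes that of miR-126*. Of 6 blood probes 3 were tested, with miR-223 at -0.23 ± 0.46 (SE), -0.66 without control replicate 1 and 0.29 without control replicate 3, and miR-144 and miR-142-3p were detected on no array. Their summed brightness was 6139 to 8200 in controls and 8152 to 9689 at 7 days. Of 9 nerve probes 3 were tested, miR-338 and the pair miR-128a and miR-128b (both -0.10), whose targets differ at 1 base. Of 12 epithelial and gland probes 6 were tested, with miR-183 furthest and miR-205 at 0.14 ± 0.10 (SE), and a summed brightness of 825 to 965 in controls and 922 to 1157 at 7 days. The part of these cell types in the results was not tested.

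The level of all probes depends on the scaling, so list medians were also set against the median of all probes, which ran from -0.27 to 0.14 under 7 scalings. Relative to it, the miR-29 family median lay between 0.20 and 0.24 and the miR-17 to miR-92 clusters between -0.19 and -0.12. The smooth muscle and fibroblast list lay between -0.28 and -0.19, and the inflammation and fibrosis list between -0.26 and -0.05. All scalings but quantile normalisation and cyclic loess differ from each other only by a constant per array. They therefore give each list the same relative value by construction. The ranges compare only quantile normalisation, cyclic loess and that shared value. The medians of the family of miR-15, miR-16 and relatives (-0.05 to 0.04), the blood markers (-0.20 to 0.04) and the nerve markers (-0.06 to 0.25) changed sign among these scalings.

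Tested probes had 136 different seeds, and 9 seeds were shared by 3 or more probes. The seed of miR-17, miR-20a, miR-20b, miR-93 and miR-106b had 5 of 5 members on the lower side with a median of -0.25, and the seed of miR-99a, miR-99b and miR-100 had 3 of 3 with a median of -0.17. The miR-29 seed had 3 of 3 on the higher side with a median of 0.27. The let-7 seed, the largest group, had 2 of 8 higher. Probes of 1 seed can differ by as little as 1 base, as they do for miR-99a and miR-100, and 21 pairs among 32 tested probes differed by at most 2 bases.

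Both arms of 12 hairpins were tested. The log2 difference between the arms on each array does not depend on the scaling when taken before normalisation. For miR-126* over miR-126 it was -4.34, -6.37 and -5.88 in controls and -2.06, -2.02 and -2.72 at 7 days, a change of 3.26 in the difference. For miR-189 over miR-24 it was -7.15, -7.25 and -7.21 in controls and -6.64, -6.59 and -6.51 at 7 days, a change of 0.62. In both cases the groups did not overlap, and the exact two-sided permutation test gave p = 0.1, the smallest that 3 arrays against 3 allow (0.2 after Benjamini-Hochberg over the 12 hairpins). The same p was found for miR-424 over miR-322 (change 0.55), miR-7 over miR-7* (-0.55), miR-30a-5p over miR-30a-3p (-0.30) and miR-22* over miR-22 (0.27). For these pairs the normalised log2 fold changes of the arms differed by 0.25, -0.31, -0.03 and 0.04, in that order. They differed by 2.89 for miR-126* over miR-126 and by 0.71 for miR-189 over miR-24. Among single tested probes, on the normalised scale, the groups did not overlap for 24.2%. For miR-140 over miR-140* the change was 0.14 with overlapping groups, against a difference of 0.58 between their normalised log2 fold changes.

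More probes were detected on the suspended arrays. The counts were 172, 157 and 184 on the control arrays and 204, 190 and 187 on the 7-day arrays, so that the groups did not overlap. The means were 171.0 ± 13.5 and 193.7 ± 9.1 (SD, n = 3 each; exact two-sided permutation p = 0.1, the smallest the design allows, and 0.25 after adjustment over 5 array measures). All 178 tested probes were detected on every 7-day array, while 29 of them were missing on at least 1 control array, and no probe was complete in controls alone. The empty-spot limit was 31.6 to 53.6 in controls and 31.98 to 38.4 at 7 days, and with the 99th percentile as the limit the groups overlapped (151 to 169 against 161 to 183). The 4 spike-calibration probes used for scaling, named PUC2PM-20B with or without a prefix, were brighter at 7 days by a mean of 0.16 log2 units. The perfect-match probes a-PUC2PM and PUC2PM, which were not among them, were 1.356-fold and 1.46-fold brighter. The part of the limit and of overall brightness in the counts was not tested. MiR-190 and the predicted MM_89 were detected on all 7-day arrays and on no control array. Their signal lay under the lowest detected signal of the control arrays, so no fold is given. Fitted differences printed for them under other scalings are differences in signal near background, not folds.

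The change was also read against what the probes share. Split into 3 bins by GC content of the target, the 59 probes of the lowest bin (22.7% to 42.9% GC) had a median log2 fold change of 0.08, with 12 higher and 5 lower at an unadjusted p below 0.05. The 59 probes of the middle bin had a median of -0.08, with 5 higher and 6 lower. The 60 probes of the highest bin (50.0% to 81.8%) had a median of -0.05, with 1 higher and 3 lower. Probes tied at a bin edge (42.86% or 50.0% GC) were divided in order of p, the smallest p going to the lower bin. The counts per bin therefore partly follow from that division, and no conclusion is drawn from them. The lowest bin had the only positive median, and the medians did not fall steadily with GC content. Across the 178 probes the correlation of GC content with log2 fold change was r = -0.23 and rho = -0.25, a description across probes that share arrays. Bins by level had medians of -0.03, -0.08 and -0.02 from dim to bright.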

How the data were processed

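Small RNA of rat soleus was measured in 1 colour (Cy5) by a service provider from 5 µg of total RNA with a mean RNA integrity number of 8.4, per the labels. The deposited scanner files give, per the file headers, the mean brightness, or intensity, of each spot and its SD within the spot. The sources used here do not name the image software or any background correction, and neither files nor labels name a slide or scan batch. The authors' value table holds whole-number intensity values of 162 of the probes, with scale and centring unstated (log2 values followed the scanner's with r of 0.966 to 0.994, column medians 326.5 to 363.5). It served as an alternative, taken as linear.

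Analysis used R 4.3.3 and limma 3.58.1: normexp with an offset of 50 fitted on all spots, log2, quantile normalisation of miRNA spots over the 6 arrays, the mean of 9 spots, lmFit and eBayes (5.88 total degrees of freedom), and Benjamini-Hochberg over 178 probes. The number of arrays limits precision: the median SE of a fold change was 0.127, and the median SD between arrays was 0.174 in controls and 0.122 at 7 days, against 0.0396 for the SE of repeat spots. On simulated data the test recovered most of the strongly changed probes, with the right direction, and made no call where nothing had been changed. Under quantile normalisation it also called unchanged probes when others changed strongly, even where only 6 had been changed. The simulated arrays spread less than the controls did and had no differences in overall brightness. The simulation therefore cannot tell how well changes of the size of most calls here are recovered. Named miRNAs are the calls, the 25 with the smallest p, the 2 furthest members of each list, all striated muscle miRNAs, those detected in 1 group alone, and hairpin or seed partners of calls. MiR-21 and the hairpins and seed groups beyond these were added after their values were seen. Members and lists were chosen with earlier results of these data known, so lists have no test. Sequences are those in the files, and 208 of the 334 match a RefSeq hairpin (GRCr8). Same-numbered deviations correlated at 0.02, -0.18 and -0.18, and differently numbered ones at -0.13 to 0.24. With 3 arrays per group these values cannot decide whether replicate numbers pair the samples. Alternatives covered background correction, scaling, the detection limit, repeat spots, array weights, all 9 arrays, the value table, a replicate block and each array left out. Scaling by spike-calibration or 5S rRNA probes, the hairpin-arm, neighbouring-locus and GC comparisons and the control-probe comparison were chosen after seeing the data.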

Additional observations from a re-analysis of the deposited data

Results flagged for a closer look

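Signal in control probes, outside the miRNA measurement, differed between the groups. Of 51 control probes, 15 lay above the empty-spot limit on all 6 arrays, and 11 of those were not in the spike-calibration scaling (the 5S rRNA probes, used in another scaling, are among the 11). Of these 11, 4 spike-calibration probes were higher on every 7-day array than on every control array. The ratio of 7-day to control geometric means was 10.52 for a-PUC2MM2d, 1.356 for a-PUC2PM, 1.552 for PUC2MM and 1.46 for PUC2PM. The 4 repeat spots of a-PUC2MM2d ran from 1200 to 2465 on control array 1, from 183 to 292 on the other controls, and from 3276 to 6352 on the 7-day arrays. The rule for these probes was written after a-PUC2MM2d had been noticed, and no cause was tested.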

How the results depend on the processing

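The count of calls was 5 and ran from 0 to 17 over 25 alternatives. It was 2 with median centring, 9 with cyclic loess, 17 (all higher) without normalisation between arrays, 3 with an intensity trend and 1 with 5S rRNA scaling. It was 0 with all 9 arrays in the fit (25 at an unadjusted p below 0.05) and 0 with the authors' value table at a pseudocount of 1 (30 unadjusted). It was also 0 with a replicate block (smallest limma adjusted p 0.127), and whether the numbers pair the samples could not be decided. Leaving out 1 array gave 0 to 6. Why the counts moved was not tested. The share of higher values among probes at an unadjusted p below 0.05 was 18 of 32, and was 10 of 60 with median centring, 35 of 36 without normalisation and 6 of 6 with 5S rRNA scaling. The 5 called miRNAs kept their direction in all 25 alternatives, and passed the threshold in 14 (miR-148b), 14 (miR-333), 12 (miR-221), 16 (miR-126*) and 10 (miR-222). The value table at a pseudocount of 1 gave 6.07 for miR-126*.

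Changes of sign were found only among uncalled miRNAs, and the cause was not tested. Values of MM_89 and miR-190, not above background in controls, are no folds. With 5S rRNA scaling the values were miR-205 -0.062, miR-181b 0.021, miR-128a 0.18, miR-1* -0.13, miR-206 -0.16, MM_89 -0.24, miR-190 -0.21, miR-152 0.18 and miR-126 -0.042. With 75th percentile centring they were miR-205 -0.18, miR-128a 0.067, miR-1* -0.25, miR-206 -0.27, MM_89 -0.36, miR-190 -0.33, miR-152 0.061 and miR-126 -0.16. With median centring they were miR-205 -0.26, miR-30d -0.060, miR-1* -0.33, miR-206 -0.35, MM_89 -0.44, miR-190 -0.41 and miR-126 -0.24. With cyclic loess they were miR-128a 0.085, miR-206 -0.072, miR-152 0.069 and miR-126 -0.030. Without normalisation they were miR-146 0.14, miR-223 0.18, miR-24 0.085, miR-27a 0.15, miR-181b 0.23, miR-128a 0.40, miR-133a 0.044, miR-133b 0.019, miR-499 0.063, MM_89 -0.032, miR-190 -7e-04 and miR-152 0.39. With spike-calibration scaling they were miR-223 0.024, miR-205 -0.0081, miR-181b 0.075, miR-128a 0.24, miR-1* -0.0749, miR-206 -0.10, MM_89 -0.19, miR-190 -0.16 and miR-152 0.23. MiR-126 was at -0.021 with array weights and -0.012 with the value table at either pseudocount. Leaving out 1 array gave -0.66 to 0.29 for miR-223, -0.015 to 0.27 for miR-30e, -0.20 to 0.036 for miR-128a, -0.0017 to 0.26 for miR-1* and -0.031 to 0.048 for miR-126.

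The excess of detected probes at 7 days was 15.3 at the 99th percentile of empty spots, 15.7 at the median plus 3 MAD and 25.7 by the mean of repeat spots, against 22.7. Dim probes limit the comparison, since signals near the empty-spot level cannot be ranked.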
